A study of Mus musculus with 16 samples.

Results

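The GIMAP genes (GTPases of immunity-associated proteins) were followed in RNA-seq of LSK cells, the lineage-negative, Sca1+ and c-Kit+ fraction of mouse bone marrow that holds stem and multipotent progenitor cells. The 8 members, Gimap1, Gimap3, Gimap4, Gimap5, Gimap6, Gimap7, Gimap8 and Gimap9, were matched by symbol among the 53342 genes in the files, and all 8 were among the 16482 genes with enough counts to be tested. The family was chosen on measured values of these libraries: Gimap3 stood higher in the mutant after 5-FU, so that contrast is described here without a test. The groups compared were Gata2 +9.5(Ets)-/- mutants given 250 mg/kg 5-FU (3 libraries), WT mice given 250 mg/kg 5-FU (3 libraries), the mutants given PBS (5 libraries) and WT mice given PBS (5 libraries). The mutation is homozygous and lies in the Ets motif of the +9.5 element, an intronic enhancer of the Gata2 gene, so every cell of the animal carries it. 5-FU (5-fluorouracil) is an antimetabolite that kills dividing cells and forces the marrow to rebuild. Bone marrow of all groups was taken 10 days after injection from mice aged 8 to 14 weeks on a C57BL/6J background, and 3000 to 10000 B220-, CD3-, CD4-, CD5-, CD8-, Sca1+ and c-Kit+ cells were sorted per replicate. The labels do not say whether replicates came from separate mice, so p-values measure the spread between these libraries, which may in part be technical.

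GIMAP proteins are GTP-binding proteins with an AIG1-type domain, encoded side by side in a cluster and known above all from lymphocytes, where they control survival, quiescence and organelle homeostasis. In mice, loss of Gimap5 removes mature T cells and also disturbs the quiescence of stem cells, Gimap3 acts together with Gimap5 in T-cell survival and influences mitochondrial DNA segregation, and Gimap1 is required by mature B and T cells. Gimap4 speeds the death of T cells, Gimap6 takes part in autophagy through its binding of GABARAPL2, and human GIMAP7 stimulates the GTPase activity of other family members.

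Total expected counts ran from 19370153 to 28883365 per library. Immunoglobulin genes held between 5.90 and 28.3% of counts in mutant 5-FU libraries, 0.0404 to 0.344% in WT 5-FU libraries, 3.83 to 53.7% in mutant PBS libraries and 6.72 to 47.6% in WT PBS libraries. The genes of the positive gate were present in every library: Kit ranged from 121 to 208 CPM in mutant 5-FU, 254 to 572 CPM in WT 5-FU, 95.5 to 332 CPM in mutant PBS and 111 to 471 CPM in WT PBS libraries. Ly6a, which encodes Sca1, ranged from 467 to 728 CPM in mutant 5-FU, 114 to 300 CPM in WT 5-FU, 157 to 3510 CPM in mutant PBS and 185 to 3790 CPM in WT PBS libraries. Gata2 itself averaged 191 ± 20.4 CPM in mutant 5-FU and 207 ± 16.4 CPM in WT 5-FU libraries (SD, n = 3 each), and 112 ± 53.1 CPM in mutant PBS and 73.8 ± 24.5 CPM in WT PBS libraries (SD, n = 5 each); an enhancer mutation leaves the transcript in place, so this level does not check the genotype. CPM is the usual count per unit of library size, with library sizes scaled by TMM. Because the RNA comes from a bulk sort, fewer cells of a type and less RNA per cell cannot be told apart.

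The members lie within 123618 bases of chromosome 6 (GRCm38, chr6:48647234-48770851), in the order Gimap8, Gimap9, Gimap4, Gimap6, Gimap7, Gimap1, Gimap5 and Gimap3, with Gimap6 and Gimap3 on the minus strand and the others on the plus strand. Gimap3 (ENSMUSG00000039264.9, chr6:48764464-48770851) is the closest relative of its neighbour Gimap5 (ENSMUSG00000043505.8, chr6:48746197-48754210): their coding sequences are identical at 89.9% of 898 aligned bases, against 64.9% for the next closest pair, Gimap7 and Gimap9. The longest identical coding run of Gimap3 and Gimap5 is shown because reads inside it cannot be assigned to either gene. It is 140 bases long, stands in capitals, and has 10 coding bases on each side in lower case (GENCODE M21 transcripts, 5′ to 3′, chr6:48765671-48765830 on the minus strand for Gimap3 and chr6:48752674-48752833 on the plus strand for Gimap5).
Gimap3: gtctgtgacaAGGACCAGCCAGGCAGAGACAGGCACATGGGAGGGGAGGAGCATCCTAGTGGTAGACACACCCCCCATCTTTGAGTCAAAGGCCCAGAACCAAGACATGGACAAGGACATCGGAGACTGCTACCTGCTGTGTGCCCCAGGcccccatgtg
Gimap5: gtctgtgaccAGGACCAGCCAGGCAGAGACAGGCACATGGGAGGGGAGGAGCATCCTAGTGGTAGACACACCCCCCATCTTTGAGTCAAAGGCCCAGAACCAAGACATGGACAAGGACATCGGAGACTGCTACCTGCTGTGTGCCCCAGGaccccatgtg
Of the 50-base windows in the transcripts of Gimap3, 7.52% were also in transcripts of Gimap5, so most Gimap3 reads could be told from Gimap5 by sequence. Expected counts were whole numbers (within 0.005) in 16 of 16 libraries for Gimap4, Gimap6, Gimap7, Gimap8 and Gimap9, and in 0 of 16 for Gimap1, Gimap3 and Gimap5, whose shared reads were divided by RSEM. Gimap1 also overlaps the antisense model Gimap1os, which shares 32.4% of its 50-base windows, and the read-through model Gm28053 spans Gimap7 to Gimap5; levels of Gimap1, Gimap3 and Gimap5 are uncertain to that extent.

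The 250 bases before the RefSeq transcription start (GRCm38.p6) are printed for Gimap3, the member on which the family was chosen, for its relative Gimap5 and for Gimap6, the member with the highest mean TPM. Capitals mark GATAA, the core of the GATA motif, and the Ets-type motifs (AGGAAG or else CGGAAG), each searched on both strands.
Gimap3 (chr6:48770852-48771101, minus strand): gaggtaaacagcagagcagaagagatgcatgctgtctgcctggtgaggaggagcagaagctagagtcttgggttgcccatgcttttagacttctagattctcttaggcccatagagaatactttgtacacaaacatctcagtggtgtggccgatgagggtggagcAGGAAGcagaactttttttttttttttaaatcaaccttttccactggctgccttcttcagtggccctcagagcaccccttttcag
Gimap5 (chr6:48745947-48746196, plus strand): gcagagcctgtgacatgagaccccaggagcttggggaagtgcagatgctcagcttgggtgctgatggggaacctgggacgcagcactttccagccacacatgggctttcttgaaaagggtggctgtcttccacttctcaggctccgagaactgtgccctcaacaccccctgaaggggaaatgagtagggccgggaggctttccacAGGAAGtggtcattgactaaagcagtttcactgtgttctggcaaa
Gimap6 (chr6:48708245-48708494, minus strand): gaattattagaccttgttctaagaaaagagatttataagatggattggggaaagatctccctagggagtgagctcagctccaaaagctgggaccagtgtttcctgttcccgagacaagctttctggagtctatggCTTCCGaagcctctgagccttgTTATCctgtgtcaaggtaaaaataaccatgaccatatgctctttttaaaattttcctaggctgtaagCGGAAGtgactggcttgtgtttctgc
AGGAAG was found upstream of 7 of the 8 members, all but Gimap6. Counted by window, it was in 7 of the members' 9 windows, beside 29.5% of the 32851 windows of the same length before all mouse genes. GATAA was found upstream of Gimap4 and Gimap6 only, in 2 of the 9 windows, beside 22.6% of all windows. CGGAAG was found upstream of Gimap8, Gimap6 and Gimap1, in 3 of the 9 windows, beside 13.6% of all windows. The 2 Ets-type motifs differ in their first letter and cannot match at the same place. All 8 members matched the promoter table, Gimap8 with 2 starts. These matches describe letters in the window and say nothing of factor binding.

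LSK cells held transcripts of all members, at levels that differed widely. On the per-length TPM scale the means over 16 libraries were 169 for Gimap6 (ENSMUSG00000047867.11), 130 for Gimap1 (ENSMUSG00000090019.5), 43.9 for Gimap5, 40.1 for Gimap9 (ENSMUSG00000051124.6), 28.5 for Gimap4 (ENSMUSG00000054435.16), 11.9 for Gimap7 (ENSMUSG00000043931.10), 9.85 for Gimap3 and 3.54 for Gimap8 (ENSMUSG00000064262.7). Gimap6 had the highest TPM of the family in 15 of 16 libraries, and Gimap1 in the other one. Gimap5, Gimap9 and Gimap4 exchanged places from library to library, holding ranks 3 to 5, 3 to 6 and 3 to 6, and Gimap3 held ranks 4 to 6 in mutant 5-FU libraries and 7 or 8 in all other libraries. The members also differed in how much they varied: the SD of log2 CPM over 16 libraries was 0.18 for Gimap1 and 0.26 for Gimap9, below the 0.61 that was the median of all genes tested, and 1.49 for Gimap3.

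**Figure D1:**
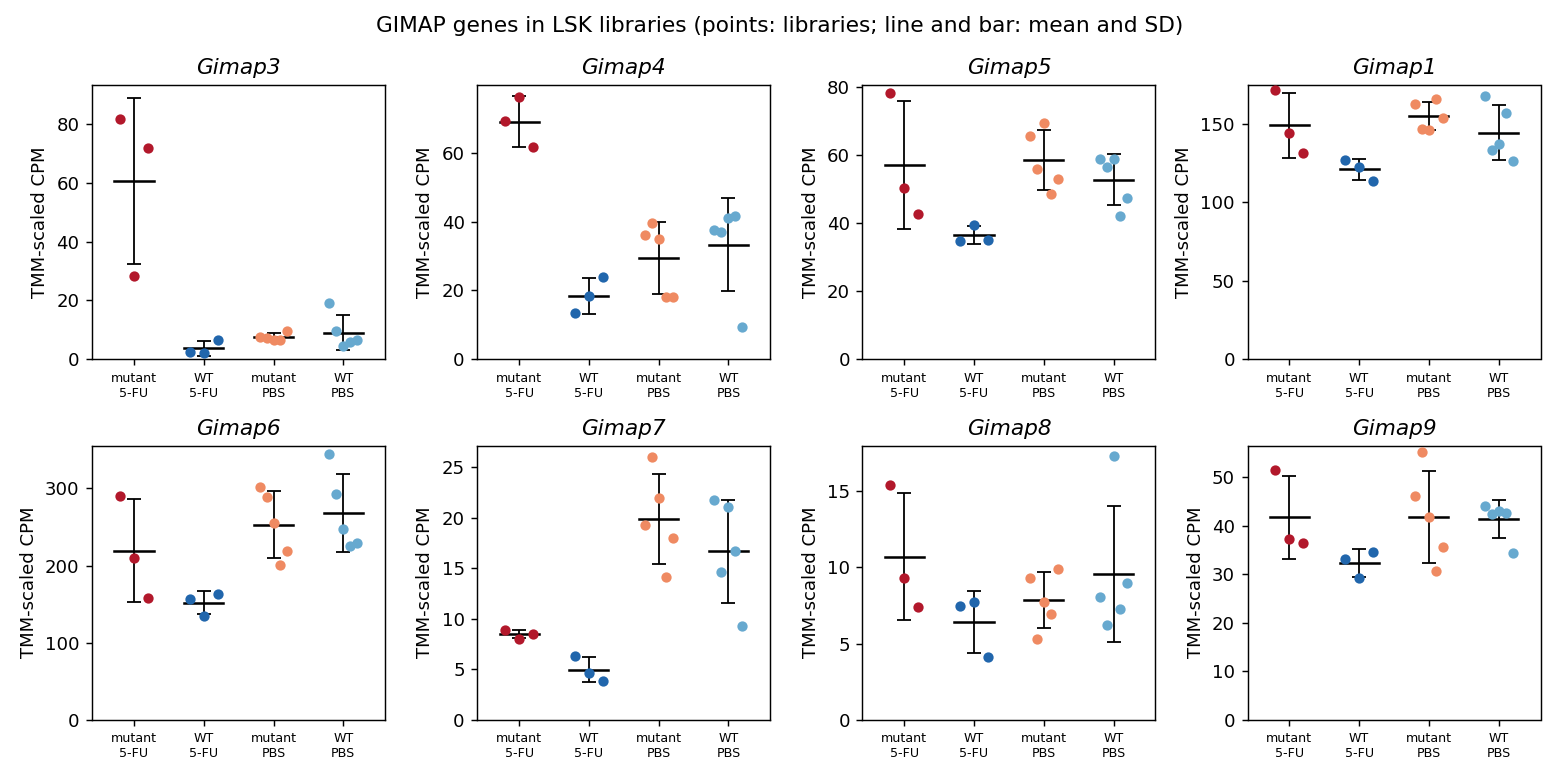
TMM-scaled CPM (vertical axis, linear, from 0) of each GIMAP gene in the libraries of the 4 groups. Points are libraries, horizontal lines are group means and bars are 1 SD; the 3 mutant 5-FU libraries hold the highest values of Gimap3 (28.4 to 81.7 CPM) and Gimap4 (61.8 to 76.4 CPM), while Gimap7 is lowest in the 5-FU libraries of both genotypes.

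Under PBS, the genotypes were compared in libraries that played no part in choosing the family. Gimap3 read 7.5, 7.28, 6.43, 6.51 and 9.63 CPM in mutant PBS libraries, against 19.1, 9.53, 4.35, 5.80 and 6.34 CPM in WT PBS libraries. The groups overlapped, and the highest value was that of WT library 1. Gimap4 read 36.2, 39.8, 34.9, 18 and 18.1 CPM in mutant PBS libraries, against 37.7, 37.0, 41.0, 41.8 and 9.46 CPM in WT PBS libraries. The low values were those of mutant libraries 4 and 5 and of WT library 5. The groups overlapped for all 8 members, and 0 of 8 passed an adjusted p of 0.05 by edgeR's quasi-likelihood test (Benjamini-Hochberg over all genes tested), beside a background of 0.0182% of genes called higher and none called lower. No member had an unadjusted p under 0.05, and DESeq2 and limma called 0 members. The log2 differences of mutant over WT lay between -0.28 ± 0.31 (Gimap8) and 0.25 ± 0.24 (Gimap7, both ± SE), all with an adjusted p of 1 by edgeR. The 95% intervals ran from -0.16 to 0.37 for Gimap1, from -0.46 to 0.30 for Gimap6 and from -1.08 to 0.54 for Gimap3, so a change of Gimap3 of up to about that size under PBS was not detectable. In libraries whose sample code is written with a leading zero, the Gimap3 difference was -0.64, and in the others it was 0.41 (log2); neither passed the test.

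After 5-FU, Gimap3 read 81.7, 28.4 and 71.9 CPM in mutant libraries, against 2.34, 2.02 and 6.57 CPM in WT libraries. Every mutant library lay above every WT library, and the second mutant library was the lowest of its group. The group means were 60.7 ± 28.4 and 3.64 ± 2.54 CPM (SD, n = 3 each), a log2 difference of 4.06 ± 0.60 (SE) in the fit, which is given as a description because it chose the family. Gimap4 read 69.5, 76.4 and 61.8 CPM in mutant libraries, against 13.3, 18.3 and 23.8 CPM in WT libraries, a log2 difference of 1.91 ± 0.45. Its groups were again apart, and its mutant libraries were closer to each other than those of Gimap3. Gimap5 read 78.4, 50.5 and 42.6 CPM in mutant libraries, against 34.8, 39.5 and 35.1 CPM in WT libraries, a log2 difference of 0.65 ± 0.23. Gimap7 read 8.89, 8.02 and 8.54 CPM in mutant libraries, against 6.32, 4.66 and 3.88 CPM in WT libraries, a log2 difference of 0.78 ± 0.31. The log2 differences of the other members were 0.73 for Gimap8, 0.53 for Gimap6, 0.37 for Gimap9 and 0.30 for Gimap1.

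The fitted difference was above 0 for all 8 members after 5-FU, with a median of 0.69 against 0.07 for all genes tested, and all mutant libraries lay above all WT libraries for 6 of 8, the exceptions being Gimap6 and Gimap8, beside 21.5% of all genes tested. The same threshold called Gimap3 and Gimap4 higher and no member lower, beside 1.49% of all genes called higher and 0.461% called lower; since the family was chosen on this contrast, nothing is read from that count. Without the first WT 5-FU library 0 members were called, and without any other single 5-FU library 1 was. On the TPM scale the median of all genes lay at -0.69, and relative to it Gimap3 stood at 3.74, Gimap4 at 1.87 and Gimap1 at 0.09, the lowest of the family; without that centring only Gimap3 and Gimap4 kept a positive sign. Sample codes of mutant 5-FU libraries are all written with a leading zero and those of WT 5-FU libraries without one, so no comparison within one writing can be made. In a fit with the writing as covariate, which the PBS libraries of both writings make possible, the log2 differences were 3.74 for Gimap3, 1.10 for Gimap4, 0.64 for Gimap8, 0.32 for Gimap1, 0.30 for Gimap5, 0.25 for Gimap7, 0.13 for Gimap6 and 0.02 for Gimap9, and Gimap4 was no longer called.

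**Figure D2:**
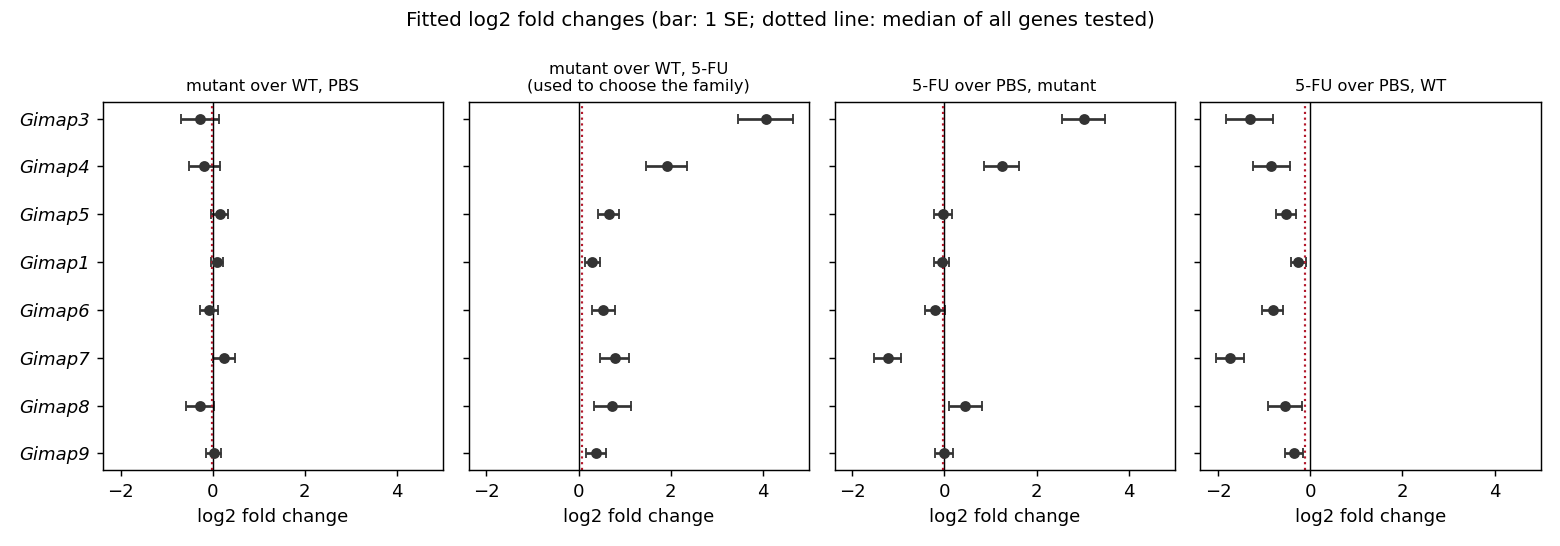
Fitted log2 fold changes (horizontal axis, points with bars of 1 SE) of the 8 members in 4 comparisons, with the median of all genes tested as a dotted line. All members lie near 0 under PBS (-0.28 to 0.25), all lie to the right of 0 in the mutant over WT after 5-FU, and in WT mice all lie to the left of 0 after 5-FU.

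The make-up of the family was read as each member's share of its summed TPM. Gimap3 made up 7.0 ± 3.25% of the family's summed TPM in mutant 5-FU libraries, 0.673 ± 0.456% in WT 5-FU libraries (SD, n = 3 each), 0.896 ± 0.243% in mutant PBS libraries and 1.04 ± 0.535% in WT PBS libraries (SD, n = 5 each). Gimap4 made up 12 ± 2.12% in mutant 5-FU libraries, 4.62 ± 1.48% in WT 5-FU libraries, 5.50 ± 1.61% in mutant PBS libraries and 6.37 ± 2.61% in WT PBS libraries. The summed CPM of the 8 members was 617 ± 133 in mutant 5-FU libraries and 375 ± 14.1 in WT 5-FU libraries, against 573 ± 68.0 in mutant PBS libraries and 575 ± 84.6 in WT PBS libraries. The summed TPM had the other order after 5-FU, 502 ± 32.4 in mutant and 585 ± 39.2 in WT 5-FU libraries, and was 391 ± 198 in mutant PBS and 357 ± 160 in WT PBS libraries. Adding Gimap5 and Gm28053 to Gimap3, which removes the split of shared reads among them, gave 121 ± 40.8 CPM in mutant 5-FU libraries and 42.4 ± 2.40 CPM in WT 5-FU libraries, with no overlap between the libraries (82.7 to 164 against 39.6 to 43.8 CPM).

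In the mutant, 5-FU was accompanied by a high level of Gimap3 and a low level of Gimap7, with most other members near their PBS levels. Relative to mutant PBS libraries, Gimap3 stood at 60.7 ± 28.4 CPM (SD, n = 3) against 7.47 ± 1.3 CPM (SD, n = 5), a log2 difference of 3.02 ± 0.47 given without a test. The value was 3.07 among the 3 mutant 5-FU and 3 mutant PBS libraries with a leading zero in their codes. Gimap4 averaged 69.2 ± 7.33 CPM after 5-FU and 29.4 ± 10.5 CPM under PBS, with all 3 libraries above the 5 PBS libraries, but did not pass the test (log2 difference 1.24 ± 0.38, edgeR adjusted p = 0.124). Gimap7 read 8.89, 8.02 and 8.54 CPM in mutant 5-FU libraries, against 19.3, 26.0, 21.9, 14.1 and 18 CPM in mutant PBS libraries. All 5-FU libraries lay below all PBS libraries, and Gimap7 fell by 1.23 ± 0.29 on the log2 scale (edgeR adjusted p = 0.0334). That call was lost when any of the mutant 5-FU libraries, or mutant PBS library 1 or 2, was left out, with adjusted p between 0.0625 and 0.150 in those fits. Gimap6, Gimap5, Gimap1 and Gimap9 lay between -0.21 and -0.01 and Gimap8 at 0.45, none past the test. Of the 8 members 1 was called lower, beside 1.36% of all genes. The only member called higher was Gimap3, beside 0.837% of all genes, and nothing is read from its call. The median of the 8 members was -0.02, against -0.03 for all genes. The mutant 5-FU libraries of this comparison are those on which the family was chosen.

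In WT mice, all 8 members had lower fitted levels after 5-FU than under PBS. Gimap7 read 6.32, 4.66 and 3.88 CPM in WT 5-FU libraries, against 21.7, 14.6, 21.0, 16.7 and 9.28 CPM in WT PBS libraries. The groups did not overlap, and Gimap7 fell by 1.75 ± 0.30 on the log2 scale (edgeR adjusted p = 0.00174). Gimap6 read 156.7, 134.9 and 163.4 CPM in WT 5-FU libraries, against 344.9, 292.8, 246.8, 225.6 and 229.1 CPM in WT PBS libraries. These groups were also apart, and Gimap6 fell by 0.82 ± 0.23 on the log2 scale (edgeR adjusted p = 0.0282). Leaving out any of the 3 WT 5-FU libraries, or WT PBS library 1 or 2, moved the adjusted p of Gimap6 to between 0.0563 and 0.152, whereas Gimap7 passed without any single library of the comparison. Among libraries whose codes have no leading zero, 3 after 5-FU and 2 under PBS, the log2 differences were -1.39 for Gimap7 (edgeR adjusted p = 0.0419) and -0.59 for Gimap6 (edgeR adjusted p = 0.0467). With the writing as covariate over all libraries Gimap6 did not pass (-0.57, edgeR adjusted p = 0.141), nor did it without the low-count filter (edgeR adjusted p = 0.0632), while Gimap7 passed in both.

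Gimap5 averaged 36.5 ± 2.60 CPM in WT 5-FU libraries and 52.8 ± 7.51 CPM in WT PBS libraries, apart but short of the threshold (log2 difference -0.53 ± 0.21, edgeR adjusted p = 0.0839). Gimap4 stood at -0.85 ± 0.40 (edgeR adjusted p = 0.134), and without WT PBS library 5, where it read 9.46 CPM, it passed at -1.10 (edgeR adjusted p = 0.0218). Gimap8, Gimap9 and Gimap1 stood at -0.56, -0.35 and -0.26, none past the test, and Gimap3 at -1.32 ± 0.50, given without a test. In all, 2 of 8 members were called lower, beside 9.31% of all genes, and 0 higher, beside 5.55%; the median was -0.69, against -0.11 for all genes. The directions hold on the TMM scale: on the TPM scale the median of all genes lay at 1.16 and all members but Gimap7 had positive differences. Relative to that median they stood between -1.36 (Gimap7) and 0.07 (Gimap1), with Gimap6 at -0.46, and none passed the test. The WT 5-FU libraries here are the ones Gimap3 was compared with when the family was chosen, and both 5-FU comparisons share libraries with the genotype comparison after 5-FU. Whether the responses of the genotypes differ was not tested for any member, because that difference contains the contrast that chose the family.

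**Figure D3:**
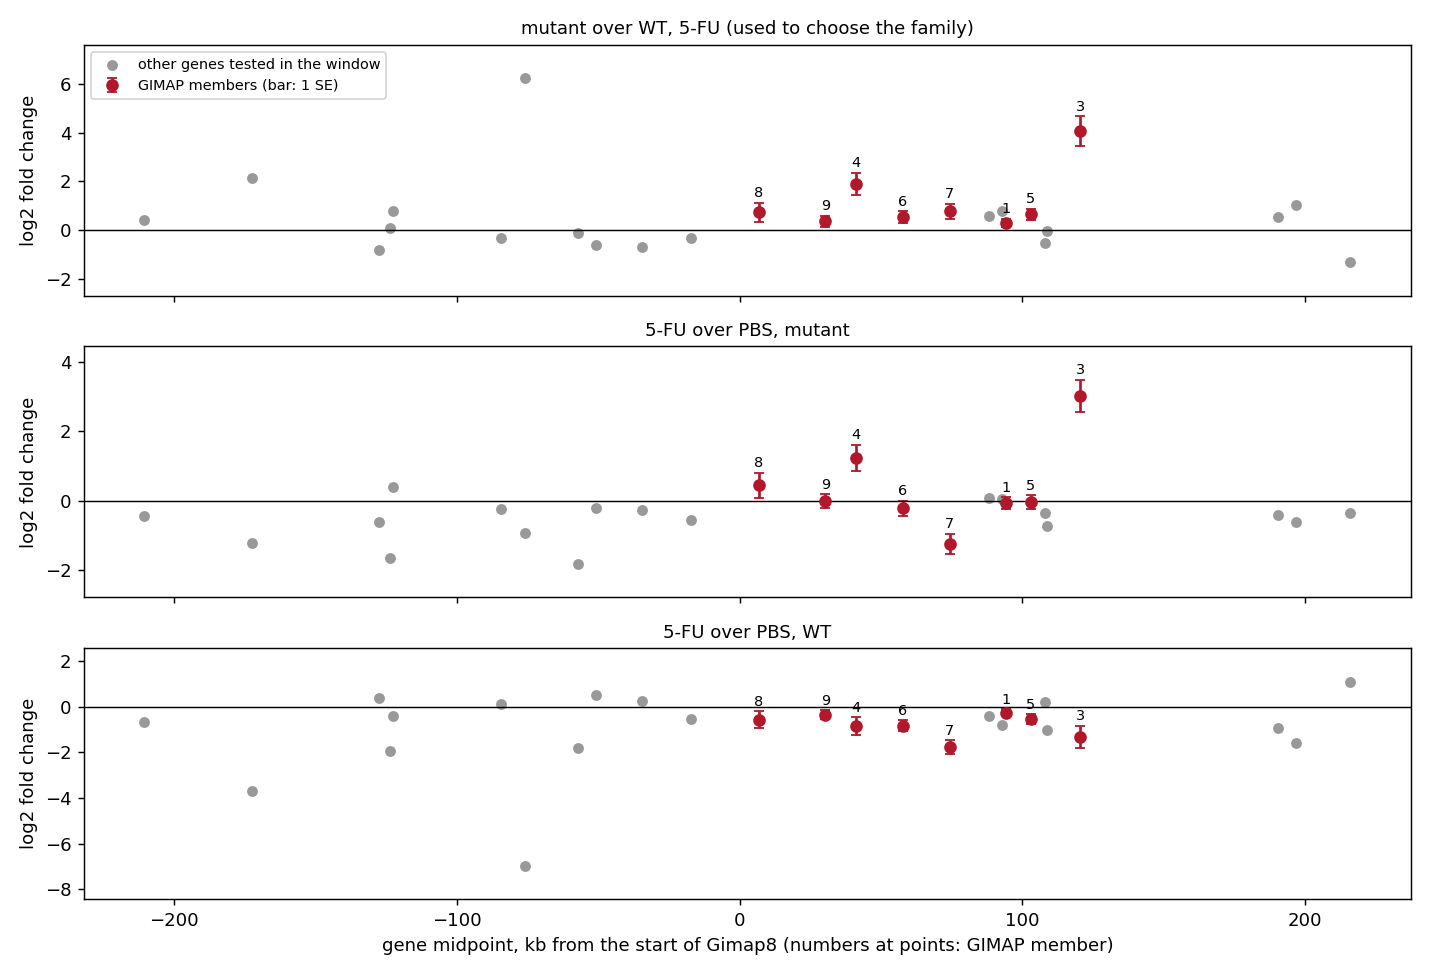
Fitted log2 fold changes (vertical axes) against the distance of each gene's midpoint from the start of Gimap8 in kb (horizontal axis), for GIMAP members (red, with bars of 1 SE, numbered by member) and the 18 other genes tested within 250 kb (grey; 1 gene model at 0 in all 5-FU libraries is not drawn). Gimap3, at the right end of the cluster, and Gimap4, next to Gimap6, stand above the members between them in the upper and middle panels.

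The genes around the cluster were set beside the members. Of 39 genes annotated within 250000 bases of the outermost members, 19 were tested. None was called in the mutant over WT after 5-FU or under PBS by edgeR. In WT mice Sspo, which encodes SCO-spondin, fell by 3.67 and the gene model Gm5111 fell by 1.82 on the log2 scale after 5-FU, and in the mutant Gm5111 fell by 1.82. Tmem176b, which encodes a membrane protein of myeloid cells and lies beyond Gimap3, averaged 520 CPM in mutant 5-FU libraries and 353 CPM in WT 5-FU libraries (log2 difference 0.56, edgeR adjusted p = 0.489). Rarres2, which encodes the chemoattractant chemerin, averaged 1.87 CPM in mutant 5-FU libraries and 0.0177 CPM in WT 5-FU libraries and was not called. The antisense model Gimap1os averaged 11.7 ± 1.63 CPM in mutant 5-FU libraries and 6.83 ± 1.38 CPM in WT 5-FU libraries, and Gm28053 averaged 3.40 ± 0.765 and 2.26 ± 0.153 CPM in mutant and WT 5-FU libraries (SD, n = 3 each); neither was called.

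Markers of lymphocytes moved with genotype after 5-FU as well, and their part in the GIMAP values was not tested. Of the 18 genes of the T-cell list, 5 were higher in the mutant after 5-FU (Bcl11b, Cd2, Trbc1, Trbc2 and Zap70), and their summed level was 48.2 to 85.5 CPM in mutant 5-FU libraries and 34.0 to 34.6 CPM in WT 5-FU libraries. The defining T-cell gene Cd3e was at 0 in all 3 mutant and all 3 WT 5-FU libraries, and Cd3d was at 0 in 2 of 3 libraries of each; a count of 3, the most that 0 allows, is 0.0798 to 0.118 CPM in these libraries. The T-cell sum was lower in mutant 5-FU libraries (65.1 ± 18.9 CPM) than in mutant PBS libraries (127 ± 25.7 CPM), while Gimap3 was higher. Of 11 NK-cell genes tested out of 13, 3 were higher in the mutant after 5-FU, with sums of 92.5 to 195 CPM in mutant and 127 to 216 CPM in WT 5-FU libraries. Nkg7 made up most of that sum. Without it, the other 12 genes summed to 15.7 to 42.0 CPM in mutant and 2.39 to 12.9 CPM in WT 5-FU libraries. Leaving it out was a choice made after the values were seen. The sum of those 12 genes averaged 31.3 ± 13.8 CPM in mutant 5-FU libraries and 14.3 ± 5.17 CPM in mutant PBS libraries, so it was higher after 5-FU, as was Gimap3. In WT PBS libraries it averaged 29.3 ± 19.8 CPM. Of the 14 B-cell genes 6 were higher, among them Cd79a and Pou2af1, with sums of 136 to 504 CPM in mutant and 51.5 to 55.6 CPM in WT 5-FU libraries. Of the 10 plasma-cell genes 6 were higher, with sums of 2390 to 19500 CPM in mutant and 229 to 482 CPM in WT 5-FU libraries.

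The order of the mutant 5-FU libraries differed between Gimap3 and the B-cell and plasma-cell lists. Gimap3 was lowest in library 2 and close in libraries 1 and 3, whereas the B-cell sum was 504, 313 and 136 CPM and the plasma-cell sum 19500, 10300 and 2390 CPM in libraries 1, 2 and 3. The T-cell sum was 85.5, 48.2 and 61.5 CPM, in the same order as Gimap3. That order was not particular to T cells. The monocyte and macrophage sum (1240, 923 and 1090 CPM) and the erythroid sum (594, 277 and 359 CPM) also had it. The sums of the other lists, here and below, had other orders. In mutant PBS libraries the B-cell sum averaged 606 ± 510 CPM and that of plasma cells 25100 ± 29300 CPM, above the mutant 5-FU means of 317 ± 184 and 10700 ± 8580 CPM, while Gimap3 read 6.43 to 9.63 CPM there. After 5-FU in WT mice, 14 of 18 T-cell, 8 of 11 NK-cell, 11 of 14 B-cell and 9 of 10 plasma-cell genes fell and none rose. Gimap6 and Gimap1 read 134.9 to 163.4 and 113.4 to 127.0 CPM in those WT 5-FU libraries. These are orders and levels in 3 libraries per 5-FU group, and the part of lymphocytes in the GIMAP values was not tested.

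**Figure D4:**
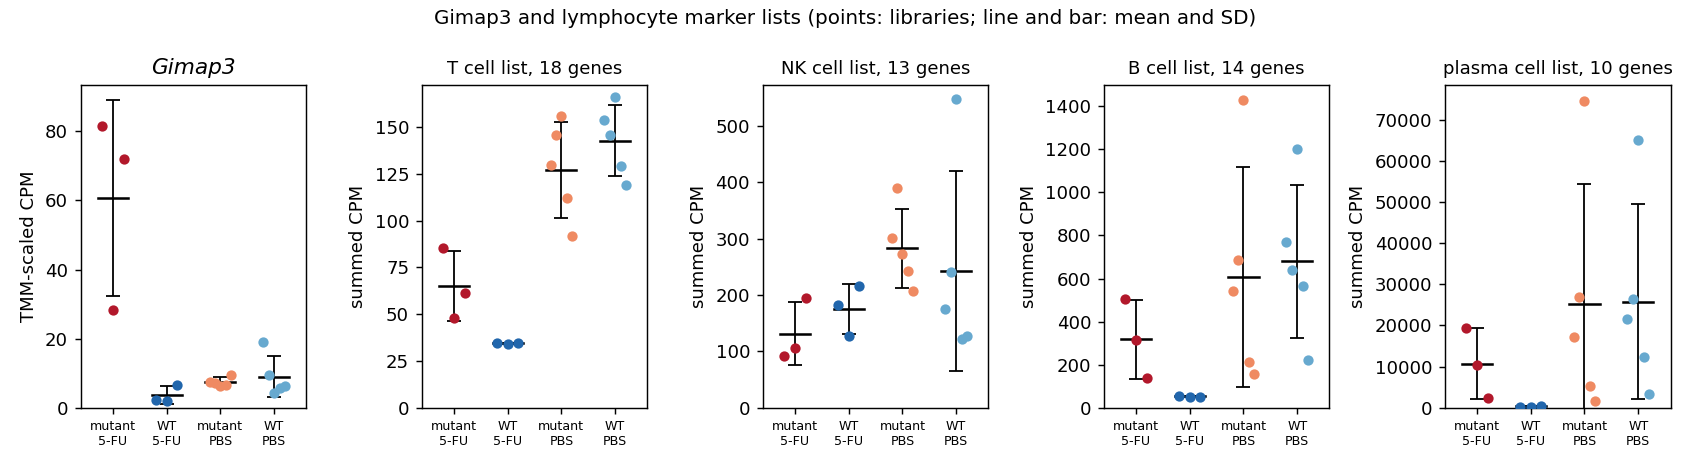
CPM of Gimap3 and summed CPM of 4 lymphocyte marker lists (vertical axes, linear, from 0) in each library of the 4 groups, with group means and bars of 1 SD, which are cut at 0. Gimap3 is highest in mutant 5-FU libraries (28.4 to 81.7 CPM), whereas the T-cell, B-cell and plasma-cell sums have higher means in the PBS groups than in mutant 5-FU libraries.

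Other lists were read in the same way after 5-FU, and their directions differed. Of 11 monocyte and macrophage genes tested out of 12, 2 were higher in the mutant, among them Adgre1, with sums of 923 to 1240 CPM in mutant and 156 to 321 CPM in WT 5-FU libraries. Of 11 endothelial genes tested out of 12 none was called between genotypes, with sums of 543 to 674 CPM in mutant and 523 to 533 CPM in WT 5-FU libraries. Of 10 erythroid genes 2 were higher (Hba-a1 and Hba-a2), with sums of 277 to 594 CPM in mutant and 101 to 261 CPM in WT 5-FU libraries. Of 12 genes of lymphoid-primed progenitors 2 were higher and 4 lower in the mutant. Their sums were 259 to 608 CPM in mutant and 514 to 860 CPM in WT 5-FU libraries. Of 14 stem-cell genes 1, Cd34, was lower, with sums of 994 to 1220 CPM in mutant and 1340 to 1620 CPM in WT 5-FU libraries. The mean sums were 1090 and 1510 CPM, and Cd34 alone averaged 214 and 682 CPM in mutant and WT 5-FU libraries. The gap between the sums was thus no larger than that of Cd34. The median log2 difference of the 14 genes was -0.07, against 0.07 for all genes. The part of these cell types in the GIMAP values was not tested.

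The wider pathway was followed in 20 genes for lymphocyte quiescence, survival and known GIMAP partners. None was called under PBS by edgeR. After 5-FU the mutant had 1 of 20 higher, Il7r, which encodes the interleukin-7 receptor, and 1 lower; the median was 0.26, against 0.07 for all genes. In WT mice 5 of 20 fell after 5-FU, namely Ccr7, Foxo3, Il7r, Klf2 and Mcl1, and 2 rose, among them Ctnnb1, with a median of -0.48 against -0.11 for all genes. In the mutant 2 of 20 fell after 5-FU, among them Ccr7, and 1 rose, Bcl2l1. Mcl1, a survival factor of the BCL2 family that Gimap5 is known to stabilise in stem cells, averaged 187 CPM in WT 5-FU and 311 CPM in WT PBS libraries (log2 difference -0.73, edgeR adjusted p = 0.0317). Between genotypes after 5-FU its log2 difference was 0.41 (edgeR adjusted p = 0.345). Map1lc3b, an autophagy protein of the GABARAP and LC3 family, and Ctnnb1, which encodes beta-catenin, had log2 differences of 0.29 and -0.59 between genotypes after 5-FU, neither past the test.

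Profiles over the 16 libraries were compared by the root-mean-square difference of centred log2 CPM among 11903 genes of at least 1 CPM. Nearest to Gimap3 were Asb2, a substrate adaptor of a ubiquitin ligase (0.80), Rnf128, a ubiquitin ligase known from T-cell anergy (0.84), Tcf15, a basic helix-loop-helix transcription factor (0.84), Slfn2, a quiescence gene of T cells (0.87), and Cysltr1, a leukotriene receptor (0.89). Rnf128 averaged 41.3 CPM in mutant 5-FU libraries, 1.57 CPM in WT 5-FU, 2.31 CPM in mutant PBS and 4.02 CPM in WT PBS libraries. Slfn2 averaged 67.8 CPM in mutant 5-FU libraries, 16.1 CPM in WT 5-FU, 34.2 CPM in mutant PBS and 42.0 CPM in WT PBS libraries. The genes nearest to Gimap6 were Cpq (0.14), Saraf (0.15), Ginm1 (0.17), Rnf122 (0.18) and Fgfbp3 (0.18). The profiles were not scaled to their spread, so genes that vary little lie near each other by construction. The SD of log2 CPM was 1.49 for Gimap3 and 0.40 for Gimap6, so the distances of the 2 members cannot be compared as degrees of likeness. Within the family the nearest pairs were Gimap1 with Gimap9 and Gimap5 with Gimap6 (0.22 each). The member nearest to Gimap3 was Gimap4 (1.05), and its sequence relative Gimap5 stood at 1.34. All distances from Gimap3 contain the contrast that chose the family, so nothing is read from their order. These distances describe 16 libraries that share 4 group means.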

How the data were processed

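RNA of 16 LSK libraries (RNeasy Micro, NuGEN Ovation Ultralow, per the labels' protocols) was quantified by the submitters; RSEM 1.3.1 and FastQC 0.11.2 with mm10/GRCm38 are named per the submitters' processing notes, and neither labels nor headers name an aligner or annotation release. The deposited expected counts are RSEM's estimates of fragments per gene before any library scaling, per the file headers. The deposited TPM values are scaled to the summed transcripts of a library, per the file headers. The deposited FPKM values are scaled to length and library, per the file headers. Expected counts were rounded, genes were filtered with filterByExpr (minimum count 10) and libraries were scaled by TMM. edgeR 4.0.16 (R 4.3.3; quasi-likelihood F test, robust, 1 mean per group, all 16 libraries, Benjamini-Hochberg, threshold 0.05) gave fold changes, with SE derived from F. TMM factors ran from 0.508 to 1.37. A higher share of immunoglobulin reads lowers every other TPM value. DESeq2 1.42.0 and limma 3.58.1 (log2(TPM + 0.5)) served as alternatives, with RLE scaling, no filter, a replicate block, the sample-code writing as covariate, the 2 groups alone and each library left out. Under PBS the deviations of same-numbered libraries correlated at 0.165 to 0.569 over genes, so the numbers were taken to pair them. That rests on the data, as the labels give no pairing, and mutant library 4 correlated best with WT library 5. Prefixes of the sample codes differed between same-numbered PBS libraries. Immunoglobulin shares of WT libraries 1 to 5 were 32.8, 38.0, 47.6, 26.2 and 6.72%. Those of mutant libraries 1 to 5 were 30.3, 36.3, 53.7, 12.7 and 3.83%. The part of that share in the correlations was not tested. The main fit does not use this pairing, which enters only through the replicate block.

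All 8 members were described in every comparison, with the tested genes within 250 kb, the 3 most abundant genes of each list, and the 5 nearest profiles to Gimap3 and Gimap6; genes named from list counts or otherwise outside this rule (Cd3d, Cd3e, Kit, Ly6a, Gata2 and the called list genes) were chosen after their values were seen. Values of the most abundant list genes are given in part, and some genes are not reported here. The members and the 10 gene lists were chosen with earlier results of these data known. Coordinates are GENCODE M21 (GRCm38), promoter sequences are RefSeq (GRCm38.p6), matched with Biopython 1.88 and Python 3.11.15. The test was checked on simulated counts.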

Additional observations from a re-analysis of the deposited data

Results flagged for a closer look

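Gimap4 in WT PBS library 5 read 9.46 CPM, far below the other 4 libraries of its group (37.0 to 41.8 CPM); its gap to the nearest library was 0.919 of the group's range, above Dixon's critical value of 0.71 for 5 samples. Gimap9 in the same library read 34.4 CPM, against 42.5 to 44.1 CPM in the other 4, with a gap of 0.853 of the range. These were 2 of 16 groups examined, and chance alone marks about 1 in 20. In the same library 6.72% of counts were immunoglobulin, the lowest share of the WT PBS group. The part of that share in the GIMAP values was not tested.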

How the results depend on the processing

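The count of members called under PBS was 0 in every alternative run. After 5-FU it was 2 for mutant over WT, 1 with the code covariate, 1 with limma on TPM, and 0 to 1 without one library. For 5-FU in the mutant it was 2, 1 with limma on TPM, 1 without the filter, and 1 to 2 without one library. For 5-FU in WT it was 2, 1 with the code covariate, 0 with limma on TPM, 1 without the filter, 5 with the replicate block, and 1 to 3 without one library. In the comparisons with 5-FU libraries these counts include calls of Gimap3, and nothing is read from those calls. Gimap6 in WT turned to 0.70 on TPM (adjusted p = 0.213 by limma), below the 1.16 by which the median of all genes moved. Gimap7 in WT lost its call only on TPM. In the mutant its call was lost on TPM and without the filter (edgeR adjusted p = 0.0514). It was also lost there when any mutant 5-FU library, or mutant PBS library 1 or 2, was left out.

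Genes called numbered 3 under PBS, 26 by DESeq2 (57.7% higher), 0 with limma on TPM, 0 with the 2 groups alone, and 1 to 4 without one library. For mutant over WT after 5-FU they numbered 321 (76.3% higher), 42 with the code covariate, 1308 by DESeq2 (63.1% higher), 139 with limma on TPM (89.9%), 1524 with the replicate block (54.9%), 2080 with the 2 groups alone (51.2%), and 17 to 206 without one library. For 5-FU in the mutant they numbered 362 (38.1% higher), 887 with the code covariate (49.4%), 178 among codes with a leading zero, 887 by DESeq2, 123 with limma on TPM (62.6%), 1014 with the replicate block (52.4%), 210 with the 2 groups alone, and 156 to 405 without one library. For 5-FU in WT they numbered 2450 (37.3% higher), 1012 with the code covariate (22.2%), 1572 among codes without a leading zero, 4597 by DESeq2, 7142 with limma on TPM (91.7%), 7318 with the replicate block (47.7%), and 526 to 3233 without one library. The cause of these shifts was not tested. Under PBS, where the numbers were taken to pair the libraries, the replicate block called 3 genes and 0 members and changed no member's call. In the other comparisons the labels give no pairing either, and same-numbered libraries had correlations between -0.158 and 0.168. All 3 mutant 5-FU libraries share a prefix of the sample code with mutant PBS libraries 1 and 2. With the block Gimap4 (-1.10) and Gimap5 passed for 5-FU in WT. With 3 libraries per 5-FU group, differences as small as those of Gimap1 and Gimap9 were not detectable.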

Other observations

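Among the 3 most abundant genes of the NK-cell list, Nkg7, a granule protein of cytotoxic lymphocytes, did not pass the test in any comparison (edgeR; log2 differences 0.33 for mutant over WT under PBS, -0.75 for mutant over WT after 5-FU, -1.42 for 5-FU over PBS in the mutant and -0.34 in WT). Lck, a kinase of the T-cell receptor and the most abundant gene of the T-cell list, fell after 5-FU by 1.88 on the log2 scale in the mutant (edgeR adjusted p = 0.00335) and by 1.97 in WT (edgeR adjusted p = 0.00103). Il7r averaged 13.8 CPM in mutant 5-FU libraries and 0.224 CPM in WT 5-FU libraries; it was named after its values were seen.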
